A study of Mus musculus with 12 samples.

Results

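The genes described here encode the classical axon guidance ligands and receptors: the Eph receptors and ephrins, the semaphorins of classes 3 to 7 with their plexin and neuropilin receptors, the Slits and Robos, and the netrins with *Dcc* and the Unc5 receptors. They were defined by gene symbol, and the set was chosen with earlier results of these data known. The definition gave 68 of the 46078 genes present in both count tables. RNA was sequenced from brains of *Nsd2* KO and WT mice at E15.5, in 3 KO males, 3 WT males, 3 KO females and 3 WT females. The KO removes the entire coding sequence of *Nsd2*, a histone H3 lysine 36 methyltransferase, and was made by CRISPR/Cas9 editing. All mice were on a C57BL/6 background. How far the dissected tissue extended in each brain is not given in the sources used here. Because bulk tissue was sequenced, fewer cells of a type and less RNA per cell cannot be told apart in any value below.

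Guidance ligands are secreted or displayed along the path of a growing axon, and the receptors on its growth cone turn them into attraction or repulsion. Ephrins stay attached to the membrane and bind Eph receptor tyrosine kinases upon cell contact, secreted class 3 semaphorins act through neuropilins paired with plexins, Slits repel axons through Robo receptors, and netrins attract through DCC and repel through UNC5 receptors. At this stage the main tracts and commissures of the mouse brain are being laid down.

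Library totals ranged from 40398665 to 59304196 counts, and did not differ detectably by genotype (two-sided exact permutation test, p = 0.4 for males and 0.6 for females, with 0.1 as the lower limit for 3 libraries against 3). The deleted gene, listed as *Whsc1*, was at 0.909 to 2.67 CPM (counts scaled to a common library size with TMM factors) in the 6 KO libraries and at 350.9 to 407 CPM in the 6 WT libraries. Neuronal markers (12 genes, none at 0) summed to 6250 to 6490 CPM in KO males against 6220 to 6470 CPM in WT males. In females they summed to 5850 to 6010 CPM in KO against 6180 to 6450 CPM in WT, so that the KO sums were lower. Of the single markers, only *Syt1* lay below WT without overlap in KO females (182, 184 and 170 CPM against 204, 203 and 192 CPM). The most abundant ones, *Map2*, *Dcx*, *Tubb3* and *Stmn2*, overlapped. One property set libraries apart within every group. The mean log2 CPM of the Hox genes, which are active in hindbrain and spinal cord and silent in forebrain, was -2.40, 0.57 and -4.05 in KO males, -1.53, 2.84 and 2.70 in WT males, -2.54, 3.02 and 2.83 in KO females, and -3.45, -3.75 and 2.45 in WT females. Most KO males were thus lower than most WT males, while most KO females were higher than most WT females. P-values below rest on the spread between separate mice that each model leaves. Over both sexes, and with the Hox gene level, that spread also holds any difference of the KO effect between the sexes.

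The 68 genes together took 0.560 to 0.715% of the counts of a library. This share was 0.663, 0.605 and 0.651% in KO males against 0.595, 0.624 and 0.571% in WT males, and 0.630, 0.560 and 0.660% in KO females against 0.709, 0.715 and 0.585% in WT females (exact permutation test, p = 0.2 and 0.3). All 68 were abundant enough to be tested in each comparison. Over both sexes, with sex as a term, 2 of the 68 genes fell in KO brains and 0 rose at an adjusted p under 0.05 (edgeR's quasi-likelihood test with Benjamini-Hochberg adjustment over 19768 genes), where 1.52% of all genes fell and 0.374% rose. At an unadjusted p under 0.05 there were 9, or 13.2% of the 68, against 13.7% of all genes. The 2 genes were *Epha6* and *Ephb6*, both Eph receptors, so the called share, 2.94%, rests on a pair of genes.

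*Epha6* encodes an EphA receptor, a neuronal receptor tyrosine kinase for the membrane-anchored ephrin-A ligands. The gene spans 952 kb of the minus strand (chr16:59653483-60605531, GRCm38). *Epha6* was at 5.40, 6.52 and 5.33 CPM in KO males, against 11.3, 14.96 and 10.6 CPM in WT males. In females it was at 5.59, 8.80 and 6.49 CPM in KO brains, against 16.3, 11.6 and 11.2 CPM in WT brains. The 6 KO values all lay below the 6 WT values. *Epha6* fell by 1.0 on the log2 scale over both sexes (SE 0.14, 95% interval -1.30 to -0.70, adjusted p = 0.0019 from edgeR). This call was kept without each of the 12 libraries in turn (adjusted p of up to 0.00858), and the log2 change was -1.19 (adjusted p = 0.0454) among the 6 libraries with under 1 CPM of *Hoxa5*, 3 KO and 3 WT.

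In males alone *Epha6* was the one gene of the 68 to be called, falling by 1.10 (SE 0.16, adjusted p = 0.0285 from edgeR). The male call was lost without KO male 1, KO male 3, WT male 2 or WT male 3 (adjusted p = 0.0572 to 0.19), and once the Hox gene level was added to the model (-0.92, adjusted p = 0.287). In females the log2 change was -0.90 (SE 0.21, adjusted p = 0.378), and the difference between the sexes (males minus females) was -0.20 (adjusted p = 0.939).

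*Ephb6* encodes an Eph receptor that has lost kinase activity and signals through its partners. It spans 15.03 kb of the plus strand (chr6:41605482-41620509, GRCm38). *Ephb6* was at 29.5, 30.8 and 30.4 CPM in KO males, against 33.9, 41.4 and 40.7 CPM in WT males. In females it was at 26.7, 24.5 and 34.3 CPM in KO brains, against 46.5, 40.1 and 48.3 CPM in WT brains. KO and WT did not overlap within either sex, although KO female 3 was slightly above WT male 1. *Ephb6* fell by 0.51 on the log2 scale over both sexes (SE 0.09, 95% interval -0.71 to -0.31, adjusted p = 0.0111 from edgeR), and the call was kept without each library in turn (adjusted p of up to 0.0355). It was lost among the 6 libraries with under 1 CPM of *Hoxa5* (-0.43, adjusted p = 0.442), which hold fewer samples. By sex, *Ephb6* had log2 changes of -0.36 in males (adjusted p = 0.191) and -0.66 in females (adjusted p = 0.289).

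Without overlap, KO lay below WT for 8.45% of all genes in males and 6.25% in females. The share of all genes in both sexes at once was not counted. *Epha6* and *Ephb6* were the 2 genes of the 68 whose KO values lay below the WT values without overlap in both sexes. Markers of the oligodendrocyte lineage (5 genes, none at 0) moved the same way in males, summing to 85.7 to 100 CPM in KO males and 110 to 169 CPM in WT males, and overlapped in females, at 71.1 to 115 CPM in KO and 95.6 to 138 CPM in WT. Red blood cell markers (8 genes, none at 0) also separated in males by their sum. The sum was 1840 to 2530 CPM in KO males and 2560 to 3220 CPM in WT males. Within the list *Hbb-y* went the other way, at 42.3, 21.7 and 26.8 CPM in KO males against 19.6, 10.3 and 16.4 CPM in WT males. *Hba-x* also tended higher, with overlap, at 13.7, 7.38 and 9.49 CPM in KO males against 8, 5.91 and 6.71 CPM in WT males. In females the sums overlapped, at 1750 to 3140 CPM in KO and 1390 to 2050 CPM in WT. The part of either list in the changes of *Epha6* and *Ephb6* was not tested. The transcripts annotated over *Epha6* and present in the tables held 6, 38 and 21 counts in all 12 libraries, against 6093 for *Epha6* itself, and no annotated gene overlapped *Ephb6*.

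The 250 bases upstream of the RefSeq start of these 2 genes (RefSeq, GRCm38.p6) are shown because both fell together, with each CpG in capitals, 5′ to 3′ on the strand of the gene. The *Epha6* window is chr16:60605532-60605781 on the minus strand and the *Ephb6* window is chr6:41605261-41605510 on the plus strand.
Epha6: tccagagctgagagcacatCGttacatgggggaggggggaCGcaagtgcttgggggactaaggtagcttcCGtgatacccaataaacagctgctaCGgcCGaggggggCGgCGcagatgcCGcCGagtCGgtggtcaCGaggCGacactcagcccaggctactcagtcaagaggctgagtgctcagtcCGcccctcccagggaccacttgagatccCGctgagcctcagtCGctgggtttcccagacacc
Ephb6: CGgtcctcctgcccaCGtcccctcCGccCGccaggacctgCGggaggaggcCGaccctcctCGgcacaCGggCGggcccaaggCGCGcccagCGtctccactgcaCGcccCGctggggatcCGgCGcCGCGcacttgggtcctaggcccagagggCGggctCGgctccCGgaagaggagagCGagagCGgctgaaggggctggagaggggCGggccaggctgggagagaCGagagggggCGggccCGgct
The *Epha6* window held 15 CpG at 62.8% GC, and 27.3% of 32851 RefSeq promoter windows of the same length held as many or more. The *Ephb6* window held 27 CpG at 76.8% GC, as many as or more than which 8.6% of windows held. The median over all windows was 6 CpG, and 58 of the 68 genes had an entry, with 74 windows in all. The letters TATAAA, searched on both strands, were in neither of these 2 windows, in 2 of the 74 and in 12.4% of all windows. The GENCODE start of *Ephb6* lies inside its window.

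**Figure D1:**
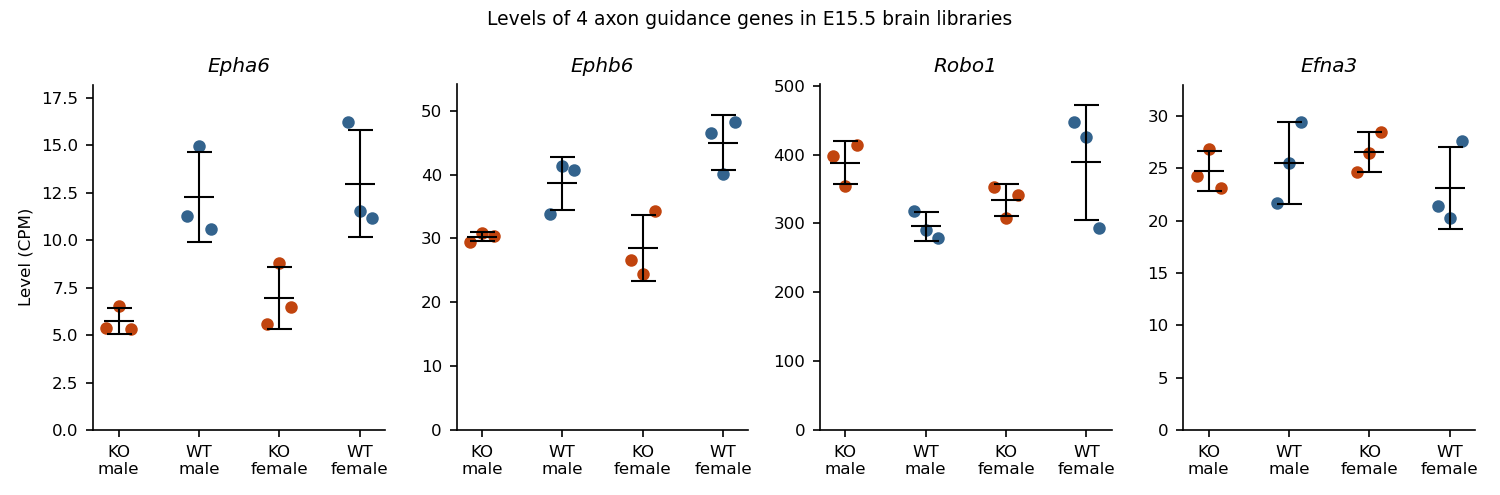
Level in CPM of *Epha6*, *Ephb6*, *Robo1* and *Efna3* in each library (points), with the mean and SD of 3 libraries a group (black). The KO values of *Epha6* and *Ephb6* lie below the WT values in each sex, those of *Robo1* lie above WT in males and overlap WT in females, and those of *Efna3* overlap.

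Among the other EphA receptors, *Epha4*, which holds corticospinal and spinal axons back from the midline, was the most abundant per length at 22.4 CPM per kb of exon (18.1 to 28.4 over 12 libraries), whereas *Epha6* ranked 57th of the 68 genes at 1.80 CPM per kb. *Epha4* had a log2 change of 0.21 over both sexes (95% interval -0.05 to 0.46, adjusted p = 0.476 from edgeR). *Epha3*, a related receptor singled out after its values were seen, was at 137.7, 106.9 and 126.2 CPM in KO males against 105.4, 86.5 and 108.2 CPM in WT males, and at 129.1, 108.5 and 123.9 CPM in KO females against 70.8, 117.4 and 92.1 CPM in WT females. Its groups overlapped in both sexes, and its log2 change was 0.33 (SE 0.11, adjusted p = 0.198). Of the 9 EphA receptors, 4 had a change below 0 and 5 above, and the median was 0.04. *Epha1* was the least abundant gene of all, at 0 to 0.518 CPM.

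Of the 5 EphB receptors, *Ephb2*, a receptor that guides commissural axons and shapes dendritic spines, was the most abundant per length at 22.1 CPM per kb. It was at 290.5, 288.6 and 319.4 CPM in KO males, against 268.4, 254.3 and 234.9 CPM in WT males. In females it was at 245.3, 206.7 and 300.9 CPM in KO brains, against 359.7, 329.5 and 238.2 CPM in WT brains. KO was thus above WT in males without overlap, and overlapped WT in females. The log2 change of *Ephb2* was 0.24 in males (adjusted p = 0.264 from edgeR), -0.30 in females (adjusted p = 0.755) and -0.03 over both (95% interval -0.31 to 0.25).

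None of the ephrins was called by genotype. The ephrin-Bs, transmembrane ligands that also signal back into their own cell, were among the most abundant genes per length. *Efnb3*, which marks the midline, ranked first of all 68 with 53.9 CPM per kb (43.1 to 61.1), and had a log2 change of -0.03 (95% interval -0.18 to 0.11). *Efnb2* stood at 25.7 CPM per kb and 0.13 (95% interval -0.06 to 0.33). Of the lipid-anchored ephrin-As, *Efna2* was highest per length at 18.6 CPM per kb. *Efna2* was at 42.0, 38.1 and 46.7 CPM in KO males against 37.3, 28.3 and 31.3 CPM in WT males, a log2 change of 0.39 (adjusted p = 0.275), and had a change of 0.00 in females. *Efna4* was the one gene of the 68 with KO above WT without overlap in females, at 7.31, 6.77 and 7.16 CPM in KO females against 5.14, 5.04 and 6.33 CPM in WT females. Its log2 change over both sexes was 0.23 (SE 0.09, adjusted p = 0.231 from edgeR), and reads of an antisense gene that holds 358 counts, against 3948 for *Efna4*, overlap it.

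**Figure D2:**
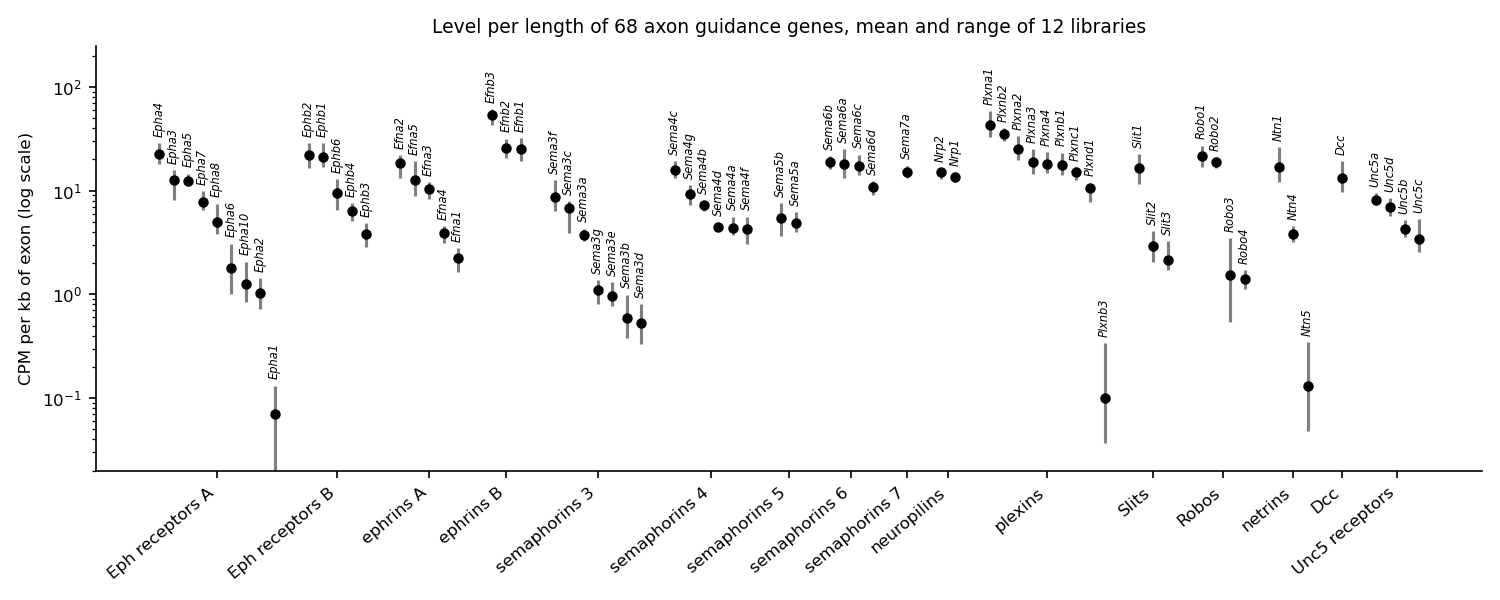
Mean level of the 68 genes in CPM per kb of exon (log scale; points), with the range of 12 libraries (lines, cut at the lower edge for *Epha1*, which has a 0), by family. *Efnb3* is highest at 53.9, and *Ntn5*, *Plxnb3* and *Epha1* are lowest, at 0.131, 0.1 and 0.0708 CPM per kb.

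None of the 20 semaphorins was called by genotype. *Sema4f*, a transmembrane semaphorin found at excitatory synapses, came nearest. It was at 16.6, 20.8 and 16.2 CPM in KO males, against 18.5, 28.9 and 23.1 CPM in WT males. In females it was at 20.8, 21.9 and 20.7 CPM in KO brains, against 27.5, 24.7 and 29.7 CPM in WT brains. The groups did not overlap in females and overlapped in males through WT male 1. The log2 change over both sexes was -0.39 (SE 0.10, 95% interval -0.60 to -0.17, adjusted p = 0.0715 from edgeR). It passed the threshold once the Hox gene level was added to the model (-0.37, adjusted p = 0.0395) and without WT male 1 (-0.44, adjusted p = 0.0201) or KO male 2 (-0.43, adjusted p = 0.0477).

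The other semaphorins missed the threshold more widely. *Sema3d*, a secreted semaphorin singled out after its values were seen, was at 2.87 to 4.80 CPM in KO males against 4.11 to 6.88 CPM in WT males, and at 3.35 to 4.19 CPM in KO females against 3.46 to 6.15 CPM in WT females. Its groups overlapped in both sexes, and its log2 change was -0.39 (SE 0.17, adjusted p = 0.343 from edgeR). *Sema3e*, a secreted repellent that binds plexin D1 without a neuropilin, had a log2 change of -0.29 over both sexes (SE 0.11, adjusted p = 0.274 from edgeR). *Sema3f*, the neuropilin-2 ligand and the most abundant of class 3 per length, was at 42.6, 41.9 and 44.3 CPM in KO males against 39.0, 34.3 and 32.7 CPM in WT males, with no overlap, and overlapped in females, with log2 changes of 0.28 and -0.11. *Sema6d*, a transmembrane ligand of plexin A1, was at 108.8, 105.2 and 95.5 CPM in KO males, all below the 110.4, 129.7 and 112.4 CPM of WT males (log2 change -0.19, adjusted p = 0.413), and had a change of -0.05 in females. *Sema4c*, *Sema5b*, *Sema6b* and *Sema7a* had changes of 0.09, 0.07, -0.01 and -0.02 over both sexes, with intervals that include 0.

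The receptors of the semaphorins showed the same small differences. *Nrp1* and *Nrp2*, which bind class 3 semaphorins, had log2 changes of 0.04 (95% interval -0.09 to 0.18) and 0.03 (95% interval -0.10 to 0.16). *Plxna1*, a signalling partner of the neuropilins and second of all 68 per length at 43.0 CPM per kb, had changes of 0.13 in males and -0.38 in females (adjusted p = 0.456 and 0.717 from edgeR). *Plxnb3*, a receptor for semaphorin 5A, had the largest change in size of the 68, -1.49, at low counts. *Plxnb3* was at 0.321, 0.392 and 0.24 CPM in KO males against 0.428, 2.21 and 0.754 CPM in WT males, and at 0.317, 0.494 and 0.28 CPM in KO females against 0.272, 0.469 and 1.62 CPM in WT females. The high values belonged to WT male 2 and WT female 3, and the interval ran from -2.53 to -0.45 (adjusted p = 0.171). The Hox gene level of these libraries was 2.84 and 2.45. That of WT male 3, KO female 2 and KO female 3 was 2.70, 3.02 and 2.83, with 0.754, 0.494 and 0.28 CPM of *Plxnb3*. The slope of *Plxnb3* with the Hox gene level was 0.229 (SE 0.064, adjusted p = 0.0872 from edgeR) and was not called.

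*Robo1*, which carries the repulsive Slit signal at the midline, was at 397.8, 353.9 and 413.4 CPM in KO males, against 318.5, 290.4 and 278.3 CPM in WT males. In females it was at 353.1, 308.6 and 341.9 CPM in KO brains, against 448.1, 425.4 and 293.4 CPM in WT brains. KO males lay above WT males without overlap, whereas WT female 1 and WT female 2 were the highest of all 12 libraries and WT female 3 was below every KO female. The log2 change was 0.39 in males (SE 0.08, adjusted p = 0.111 from edgeR) and -0.22 in females (adjusted p = 0.798). *Robo2*, the partner of *Robo1* in forebrain tracts, had a change of 0.16 in males (adjusted p = 0.377) and -0.01 in females. The ligands *Slit1* and *Slit3* had changes of -0.04 and -0.19 over both sexes (adjusted p = 0.911 and 0.599).

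*Dcc*, the netrin receptor that draws commissural axons to the midline, had its groups in a similar order. It was at 199.6, 171.4 and 177.2 CPM in KO males, against 155.5, 131.5 and 128.4 CPM in WT males, and KO lay above WT without overlap. In females *Dcc* was at 176.6, 166.9 and 203.7 CPM in KO brains, against 253.1, 208.7 and 132.6 CPM in WT brains, and the groups overlapped. The log2 change was 0.40 in males (SE 0.09, adjusted p = 0.149 from edgeR) and -0.12 in females (adjusted p = 0.924). *Ntn1*, the main netrin of the floor plate, overlapped between genotypes, at 115, 94.7 and 77.4 CPM in KO males against 118.4, 164.4 and 75.5 CPM in WT males (log2 change -0.26 over both sexes, adjusted p = 0.58). *Ntn5* was near the detection limit at 0.107 to 0.308 CPM in KO and 0.168 to 0.77 CPM in WT. *Unc5a*, the most abundant Unc5 receptor per length, had a change of -0.11 (95% interval -0.23 to 0.00, adjusted p = 0.355).

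**Figure D3:**
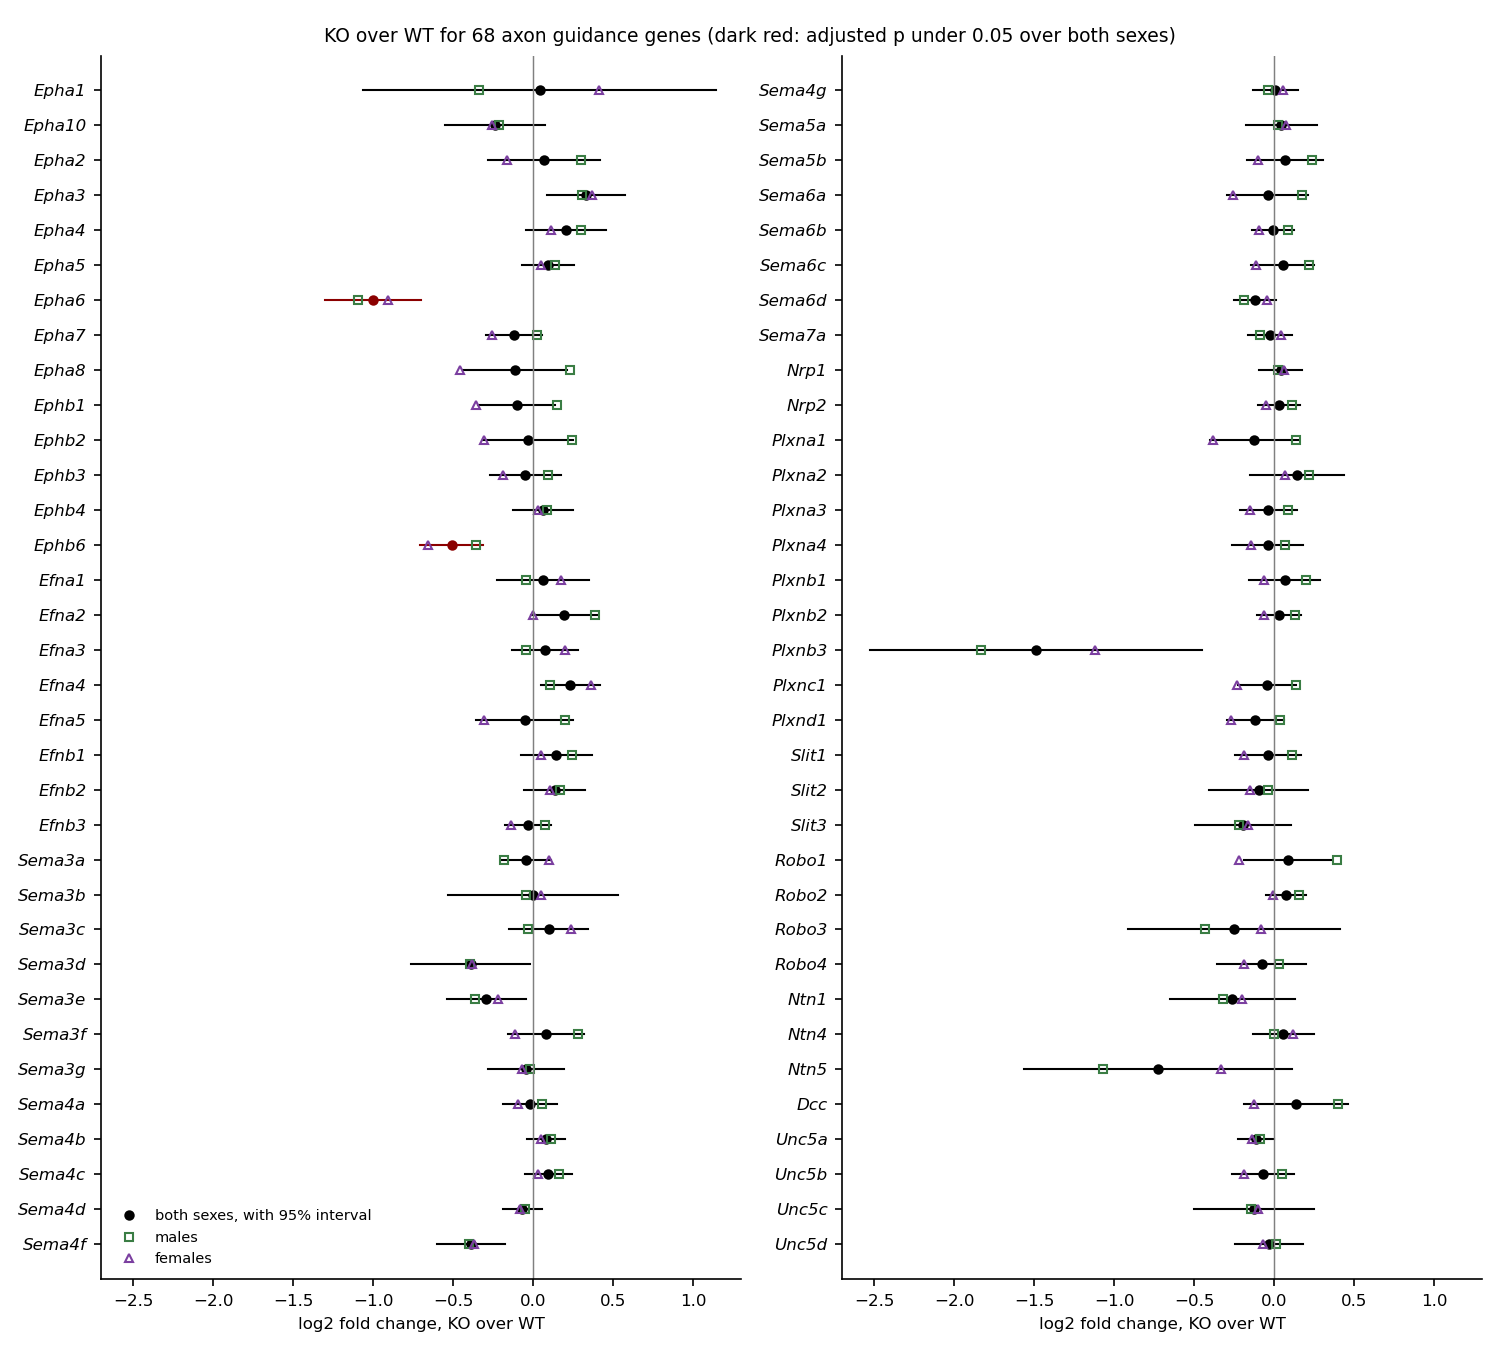
Log2 fold change of KO over WT for each of the 68 genes, over both sexes with the 95% interval (filled circles and lines) and in males (squares) and females (triangles). *Epha6* and *Ephb6* (dark red) are called lower over both sexes, and most intervals are narrow and include 0.

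For most of the genes the data bounded the change closely. The 95% interval over both sexes lay within 1.5-fold of no change for 59 of the 68 genes and within 2-fold for 64, the corresponding counts being 52 and 62 in males and 44 and 63 in females. The median log2 change over both sexes was -0.03 for the 68 genes, 38 of them below 0. It was 0.00 for all genes, 9756 of 19768 below 0.

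The 2 sexes were then set side by side. They were counted separately, and the kit and sequencer of each library are not given. A difference between the sexes therefore cannot be told apart from one of kit or sequencer. The Hox gene level also differed between KO and WT in opposite directions in most males and most females. It cannot be fully separated from a sex difference of the KO effect. In males 1 of 68 genes fell and 0 rose, against 0.343% and 0.123% of all 18672 genes, and 16 of 68 (23.5%) had an unadjusted p under 0.05, against 11.9% of all genes. In females 0 fell and 0 rose, against 0.0107% and 0.0107% of 18710 genes, and 6 of 68 (8.82%) had an unadjusted p under 0.05, against 7.48%. DESeq2 called *Epha6* and *Ephb6* lower in females, among 130 of all genes lower and 50 higher. The median change was 0.06 in males (42 genes above 0) and -0.10 in females (46 genes below 0), where the medians of all genes were -0.01 and 0.01. Of all genes, 9112 of 18672 were above 0 in males and 9063 of 18710 below 0 in females. Of the 68 genes, 29 were higher in KO males and lower in KO females, 9 the reverse, 17 lower in both and 13 higher in both. All genes were not split in this way, so no share stands beside these counts. The sum of neuronal markers, given above, was also lower in KO females, though most of the single markers overlapped there. The part of these markers in the lower median was not tested.

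Values without overlap were also counted in each sex. KO males lay above WT males for 11 genes (16.2%, against 8.87% of all genes) and below for 4 (5.88%, against 8.45%). The 11 were *Dcc*, *Efna2*, *Ephb2*, *Plxnb2*, *Robo1*, *Robo2*, *Sema3f*, *Sema4b*, *Sema4c*, *Sema6a* and *Sema6c*, named here after their values were seen where no rule chose them. KO females lay above WT females for 1 gene (1.47%, against 7.57%) and below for 5 (7.35%, against 6.25%). The share below in females was thus near that of all genes.

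Tested directly, the difference of the KO effect between the sexes (males minus females) was called for 0 of the 68 genes and for 0% of all genes, while 8 of 68 (11.8%) had an unadjusted p under 0.05, against 4.45% of all genes. DESeq2 called 2 of all genes lower and 3 higher, and 0 of the 68. The median difference was 0.12 for the 68 genes and -0.03 for all genes. The smallest p was that of *Robo1*, with a difference of 0.61 (95% interval 0.18 to 1.03, adjusted p = 0.91 from edgeR). Without WT female 3 this difference was 0.77 and was called (adjusted p = 0.0474). For *Epha6* the interval of the difference was -0.81 to 0.42 and for *Ephb6* it was -0.07 to 0.67.

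**Figure D4:**
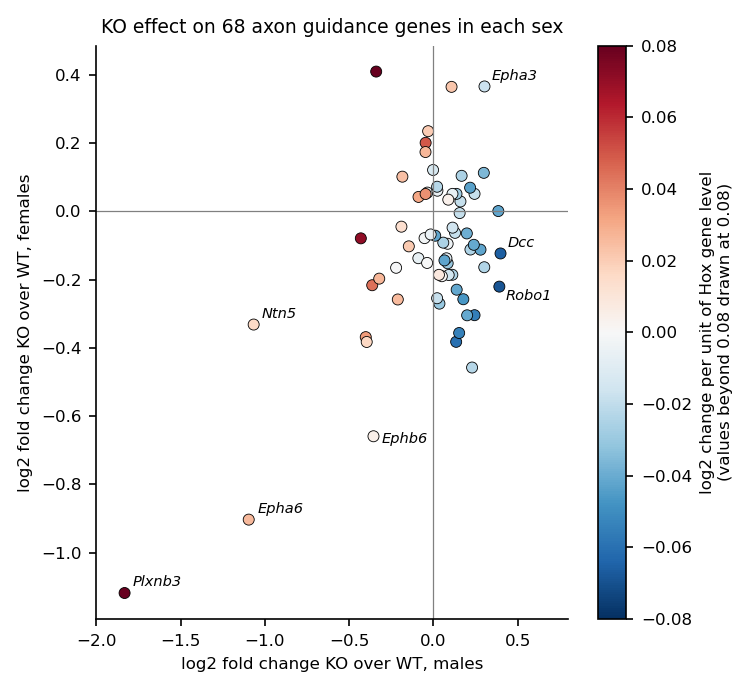
Log2 fold change of KO over WT in males (x axis) and in females (y axis) for the 68 genes, coloured by the log2 change of each gene per unit of the Hox gene level. *Epha6*, *Ephb6* and *Plxnb3* are below 0 in both sexes, and 29 genes, *Robo1* and *Dcc* among them, are above 0 in males and below 0 in females.

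Because the libraries differed in Hox gene level, the guidance genes were also tested for a change with it, with sex and genotype as terms. No term let the KO effect differ between the sexes. The Hox gene level was mostly lower in KO than in WT males and mostly higher in KO than in WT females. A slope and a sex difference of the KO effect therefore cannot be fully told apart. *Robo1* was lower with a higher Hox gene level, by 0.069 on the log2 scale for each unit of the mean Hox log2 CPM (slope -0.069, SE 0.011, adjusted p = 0.016 from edgeR). *Efna3*, an ephrin-A, was higher, with a slope of 0.050 (SE 0.010, adjusted p = 0.0376). So 1 of 68 genes was called lower and 1 higher, against 0.41% and 0.723% of all genes. At an unadjusted p under 0.05 there were 22 (32.4%), against 18.4% of all genes. Slopes below 0 numbered 45 of the 68, against 9074 of 19768 over all genes.

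In *Robo1* the library with the lowest Hox gene level, KO male 3, was at 413.4 CPM and the library with the highest, KO female 2, at 308.6 CPM. *Efna3* was at 24.3, 26.9 and 23.1 CPM in KO males against 21.7, 25.5 and 29.5 CPM in WT males, and at 24.7, 26.5 and 28.5 CPM in KO females against 21.4, 20.3 and 27.7 CPM in WT females, so that genotypes overlapped in both sexes (log2 change 0.08 over both, adjusted p = 0.798 from edgeR). *Dcc* (slope -0.066, adjusted p = 0.0916) and *Plxna1* (slope -0.060, adjusted p = 0.0716) missed the threshold. *Epha6* and *Ephb6* had slopes of 0.026 and 0.005 (adjusted p = 0.604 and 0.908). The call of *Efna3* was lost without any 1 of 9 libraries (adjusted p = 0.054 to 0.165), and that of *Robo1* without KO male 3, KO female 2 or WT female 2 (adjusted p = 0.0506 to 0.0691).

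When the Hox gene level was added to the genotype models, the KO effect on *Robo1* was 0.25 in males and -0.01 in females, and that on *Dcc* was 0.27 and 0.12. The median over the 68 genes was then 0.05 in males and -0.03 in females, 22 genes were higher in KO males and lower in KO females, and 23 were higher in both. All genes were not split in this way. *Epha6* had a change of -0.92 in males, where it was no longer called (adjusted p = 0.287 from edgeR), and of -0.92 in females. Over both sexes *Epha6* and *Ephb6* were called as before (-1.0 and -0.51, adjusted p = 0.00171 and 0.0123 from edgeR). The Hox gene level was measured in the same libraries and is not a group of the study.

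**Figure D5:**
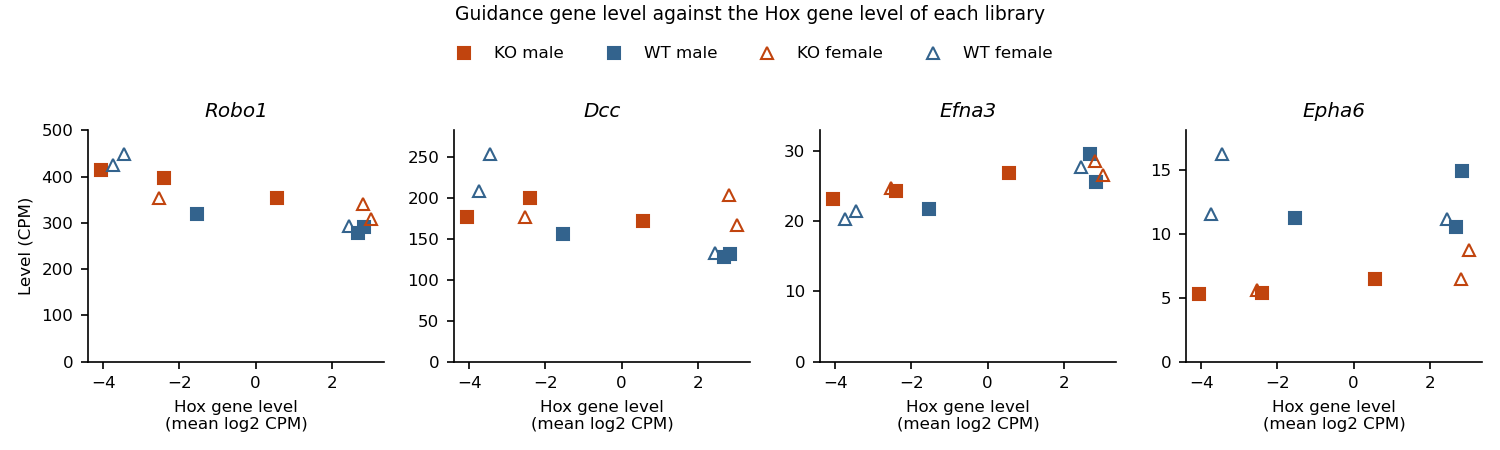
Level in CPM of *Robo1*, *Dcc*, *Efna3* and *Epha6* in each of the 12 libraries against its Hox gene level (mean log2 CPM), with KO in orange, WT in blue, males filled and females open. *Robo1* is lower and *Efna3* higher in libraries with a higher Hox gene level (slopes -0.069 and 0.050), whereas the KO values of *Epha6* stay below the WT values across the range.

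Other genes of the pathway were counted in 2 lists. Of 49 other ligands, coreceptors and adhesion molecules of guidance, 1 fell and 1 rose over both sexes, where 1.52% of all genes fell and 0.374% rose. *Cntn4*, a contactin of olfactory axons, was at 10.9, 13.3 and 8.02 CPM in KO males against 19.4, 26.8 and 21.3 CPM in WT males, and at 11.2, 19.0 and 11.3 CPM in KO females against 26.3, 20.2 and 23.4 CPM in WT females. No KO library reached the lowest WT library of its sex, and *Cntn4* fell by 0.91 (SE 0.16, adjusted p = 0.0111 from edgeR). *Flrt3*, an adhesion protein that binds UNC5 and ROBO1, rose by 0.22 (SE 0.05, adjusted p = 0.0414), a call lost without any 1 of 9 libraries (adjusted p = 0.0745 to 0.113).

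A list of 65 genes that transmit guidance signals inside the cell had 66 tested entries. Of these 66, 2 fell over both sexes and 0 rose, against the same 1.52% and 0.374% of all genes. *Ablim3*, an actin-binding LIM protein, was at 87.6, 112.1 and 88.4 CPM in KO males against 118.9, 152 and 129.5 CPM in WT males, and at 86.5, 95.9 and 71.6 CPM in KO females against 118.7, 111.3 and 126.1 CPM in WT females. KO lay below WT without overlap in both sexes, and *Ablim3* fell by 0.48 (SE 0.09, adjusted p = 0.011 from edgeR). *Dock3*, an exchange factor for the GTPase Rac, fell by 0.33 (SE 0.08, adjusted p = 0.04), a call lost without any 1 of 9 libraries (adjusted p = 0.0724 to 0.111). In males and in females alone 0 genes of either list were called by edgeR's quasi-likelihood test, with 16 of the 49 and 10 of the 66 at an unadjusted p under 0.05 in males, against 11.9% of all genes, and 4 of the 49 and 6 of the 66 in females, against 7.48%. DESeq2 called 2 and 1 genes of the first list and 1 and 1 of the second in males and in females. Over all 18672 genes it called 362 lower and 122 higher in males, and its counts over all genes in females are given above.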

How the data were processed

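Total RNA of E15.5 brains was depleted of ribosomal RNA with a first or second version kit and made into stranded libraries, sequenced on a HiSeq X or a NextSeq with reads trimmed to 75 bases. Which library had which kit or sequencer, and the strand setting of the counting, are not given in the sources used here. Per the submitters' processing notes and methods, the authors used cutadapt 2.6, HISAT2 2.1.0 (mm10) and StringTie 2.0.6, and the deposited gene counts were derived from transcript coverage by the prepDE script, separately for males and females; replicates were not pooled.

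The 2 tables were joined by gene ID and analysed with edgeR 4.0.16 (R 4.3.3): filterByExpr (minimum count 10, minimum total 15), TMM, glmQLFit with robust estimation and glmQLFTest, adjusted over all genes tested, with a threshold of 0.05. Males and females were fitted separately, and all 12 libraries with sex as a term, with the interaction of sex and genotype, or with the mean log2 CPM (prior count 2) of the Hox genes over 1 CPM in any library. DESeq2 1.42.0 and the other settings given later were alternatives. The fits were tested on simulated counts. Levels between genes are CPM per kb of merged exons (GENCODE M21, RefSeq GRCm38.p6 for promoters). Figures were drawn with matplotlib 3.10.9.

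The guidance genes, pathway lists and tests, the Hox term included, were chosen with earlier results of these data known. Named were called genes and, per family, the most abundant gene per length and that with the smallest p over both sexes; others are marked as chosen after their values were seen. Of the other marker lists, the 11 genes of radial glia and progenitors summed to 1600 to 1820 CPM in KO and 1460 to 1770 CPM in WT libraries. *Nfasc* and *Dscaml1* were lower and *Ret* higher with the Hox gene level (adjusted p = 0.0411, 0.0338 and 0.0455 from edgeR).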

Additional observations from a re-analysis of the deposited data

How the results depend on the processing

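Depth was ample for most of the 68 genes and limits *Epha1*, *Ntn5* and *Plxnb3*, all under 1 CPM on average. No call was reversed. Correlations of same-numbered KO and WT libraries (-0.0519 to 0.195) lay within those of differently numbered ones (-0.225 to 0.212). With 3 libraries a group, these cannot tell whether the replicate numbers in the titles pair the samples. With the replicate block, 1 of the 68 genes (*Dcc*, adjusted p = 0.022 from edgeR) was called higher in males, *Epha6* and *Ephb6* stayed called over both sexes (adjusted p = 0.01 and 0.0178), and *Sema4f* was also called (-0.38, adjusted p = 0.0322). The counts of all genes with the block are not given here.

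In males, of the 68 genes, DESeq2 called 2 lower and 2 higher, edgeR's exact test 2 higher, and the Hox covariate left 0 lower; over all genes these gave 362 and 122, 260 and 68, and 12 and 7 (lower and higher), against 64 and 23. In females DESeq2 called 2 lower (130 of all genes) and the exact test 1 (62 of all genes, against 2). Over both sexes 1 was lower among libraries with under 1 CPM of *Hoxa5*. With the Hox gene level, DESeq2 called 8 lower and 2 higher (708 and 589 of all genes, against 81 and 143), and a filter of over 1 CPM in 3 libraries gave 3 lower. The counts of all genes with this filter and in the low-*Hoxa5* libraries are not given here, so no share stands beside them. Leaving out 1 library at a time gave 0 to 1 lower in males, 2 to 3 lower over both sexes, 0 to 1 for the sex difference, and 0 to 11 lower and 0 to 2 higher with the Hox gene level. Over all genes these fits gave 12 to 89 lower in males and 163 to 316 lower over both sexes. They gave 0 to 18 lower and 0 to 14 higher for the sex difference, and 3 to 635 lower and 53 to 663 higher with the Hox gene level. The median of the 68 genes over both sexes ran from -0.04 to 0.02.

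Of the list of other ligands and coreceptors, DESeq2 called 1 lower and 1 higher in males, 1 lower in females and 2 lower over both sexes; the replicate block 2 and 2 in males and 0 higher over both; the exact test 1 and 1 in males; no filter and no term for sex 0 higher over both; and low-*Hoxa5* libraries 0 and 0. Leave-one-out counts over both were 1 to 2 lower and 0 to 1 higher. Of the signal transduction list, DESeq2 called 1, 1 and 5 lower in males, females and over both; the block and the exact test 1 lower in males; over both, low-*Hoxa5* libraries 0, no term for sex 1, and leave-one-out 1 to 3. Over all genes, leave-one-out fits over both sexes gave 163 to 316 lower and 38 to 80 higher. The counts of all genes for DESeq2 and the exact test within a sex are given above. Those of the other settings are not given here, so no share stands beside the list counts at those settings. The causes of the differences between settings were not tested.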
